A study of Mus musculus with 18 samples.

Results

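The late part of fat cell maturation in culture was examined by comparing 3T3-L1 cells labelled Day8 with the same cells labelled Day6, with 3 libraries of polyadenylated RNA in each group. These 6 libraries are part of a series of 18, whose other libraries are labelled Control, MCE1, MCE2 and Day4. 3T3-L1 is an established mouse fibroblast line whose cells become fat cells when treated with hormones. Cells left 2 days past confluence, a point defined as day 0, had received 10 µg/mL insulin, 0.25 µM dexamethasone (a synthetic glucocorticoid) and 0.5 mM IBMX (which keeps cAMP from being broken down) over 48 h. They were then kept with 5 µg/mL insulin in medium renewed every 2 days, so that Day6 and Day8 cells share the whole induction and differ in the time spent under insulin. No library of cells kept this long without inducers is in the comparison. The labels do not say whether the 3 libraries of a group came from separate cultures. The p-values below therefore measure only the spread between libraries of the same group, which may be technical. That spread was pooled over all 18 libraries of the series, so it is not the spread of the Day6 and Day8 libraries alone and may understate it.

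Fat cell differentiation starts with the early transcription factors C/EBP beta and C/EBP delta, which turn on PPAR gamma and C/EBP alpha, and these in turn hold on the genes of fatty acid uptake, triglyceride assembly, lipid droplets and secreted adipokines. Cells first pass through renewed division and then leave the cycle. In late culture the cells go on filling with lipid, and they respond to insulin, to beta-adrenergic signals and to the loss of the inducing hormones.

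Each value is a gene's level in TPM, the share of its transcripts scaled for their length and for the size of the library. Read depth cannot be recovered from TPM and is unknown, so no counting error is given beside the spread of the libraries. The tested genes were those with at least 1 TPM in at least 3 of the 6 libraries, 11853 of 25209 listed, and 13356 did not pass. Changes are log2 fold changes of TPM + 1 from Day6 to Day8 with their SE, which understates the change of genes at few TPM. A gene was called at a Benjamini-Hochberg adjusted p under 0.05 from limma fitted over all 18 libraries (n = 3 per group). In bulk RNA, fewer cells of a type and less of an RNA per cell cannot be told apart. Positions are those of the mm9 build.

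The libraries were close to one another. Across genes, which are not independent replicates, Pearson's r on log2 levels was 0.981 to 0.985 within Day6, 0.975 to 0.979 within Day8 and 0.966 to 0.975 between the groups. The labelled identity was checked with fat cell genes. The adipokine Adipoq stood at 3267, 3123 and 3112 TPM in the Day6 libraries and at 3518, 3637 and 3626 TPM in the Day8 libraries, and the lipid droplet coat gene Plin1 at 452, 494 and 476 TPM at Day6 and 606, 518 and 587 TPM at Day8. Both were listed at 0 in Control. Markers of other cell types were mostly at or near 0. Of 19 macrophage markers 4 passed the filter, 0 were called and 8 were at 0 in all 6 libraries, with summed levels of 11.4 to 14.1 TPM at Day6 and 13.5 to 14.8 TPM at Day8. Of 14 endothelial markers 1 passed, with sums of 1.97 to 3.48 TPM over the 6 libraries. Of 16 bone and cartilage markers 4 passed and 2 were called higher, Alpl and Spp1, with sums of 287 to 388 TPM at Day6 and 419 to 502 TPM at Day8. Of these, 0 were called in the 6 libraries alone, with array weights or without Day6 replicate 2, and 1 without Day6 replicate 3 or Day8 replicate 2. Of 13 epithelial markers 4 passed and 1 was called higher, Krt18, with sums of 20.4 to 24.3 TPM and 24.8 to 29.3 TPM, a call that a pseudocount of 0.1 ended. Their part in the results below was not tested.

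From Day6 to Day8, 1310 genes were called higher (11.1% of those tested) and 1462 lower (12.3%), together 23.4%. Most of these changes were small. The median size among the called genes was 0.43 log2 units, and 97 genes rose (0.818%) and 100 fell (0.844%) by at least 1 log2 unit. Over all tested genes the median change was 0.01. With only the 6 libraries of the comparison in the fit, 553 genes were called higher (4.67%) and 583 lower (4.92%), together 9.58%. Array weights, which count a library less the further it lies from its group, gave 958 higher and 1165 lower. These weights were 0.39 to 0.73 in Day8 and 0.42 to 1.28 in Day6, against 0.59 to 3.10 in the other groups. The pooled spread may therefore understate that of the Day8 libraries. The ranges of the 3 Day6 and the 3 Day8 libraries did not overlap in 3890 genes (32.8%). The threshold fell between Mir7067, called at an adjusted p of 0.049996, and Mipol1, not called at 0.050018.

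**Figure D1:**
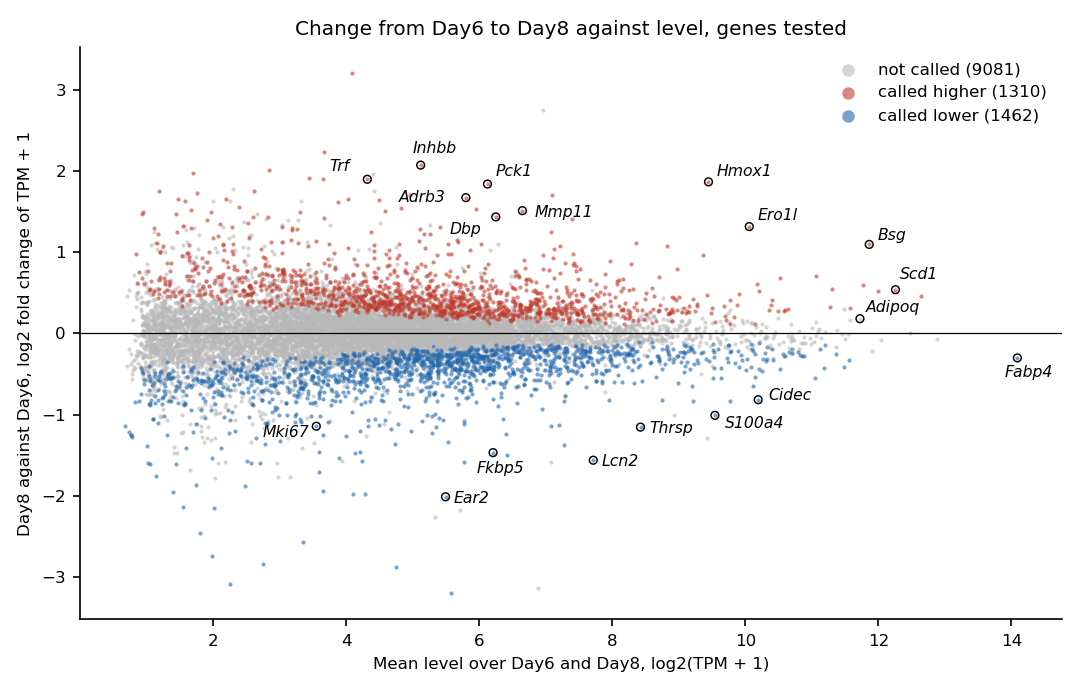
Log2 fold change of TPM + 1 from Day6 to Day8 (vertical axis) against the mean level of the gene over the 2 groups, log2(TPM + 1) (horizontal axis), with 1 point per tested gene. Red points are the 1310 genes called higher, blue points the 1462 called lower and grey points the others. Hmox1, Ero1l and Bsg rose at high levels, and Fabp4, at the right end, fell.

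The lists of genes by function differed in how their members moved. Some genes are members of several lists and are counted in each. Members of DNA replication and mitosis were called lower and 0 were called higher, and glucocorticoid responsive genes were mostly called lower. Members of fatty acid synthesis, glucose use, the clock, the fibroblast matrix, the basement membrane and the stress responses were more often called higher than lower. Genes of the mature fat cell were called in both directions. Of 29 transcription factors of adipogenesis, 1 was called higher and 4 lower, beside 11.1% and 12.3% of all tested genes. The counts of each list below are to be read beside these shares. Counts from the 6 libraries alone stand beside 4.67% higher and 4.92% lower.

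**Figure D2:**
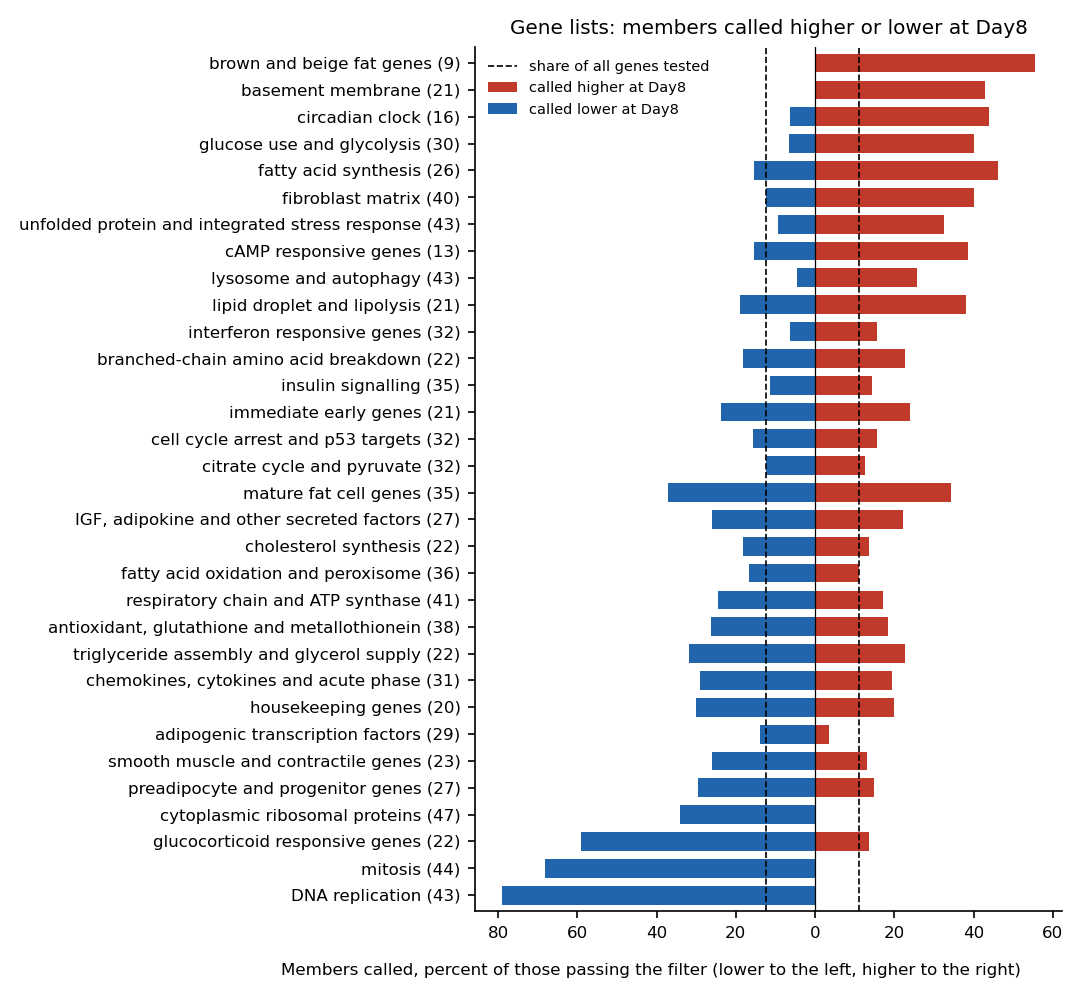
Percent of each list's members called higher (red, to the right) or lower (blue, to the left) at Day8, with the number of members that passed the filter in parentheses. Dashed lines mark the shares of all tested genes, 11.1% higher and 12.3% lower. DNA replication, mitosis and ribosomal proteins have 0 members on the red side, and brown and beige fat genes and basement membrane have 0 on the blue side.

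The genes with the largest increases encode secreted factors, receptors and enzymes. Inhbb encodes the beta B subunit of activins and inhibins (chromosome 1, 121312040 to 121318825). It held 13.1, 10.1 and 13.8 TPM at Day6 and 65.4, 53.6 and 46.9 TPM at Day8. All 3 Day8 libraries stood far above the Day6 libraries, a log2 fold change of 2.08 ± 0.13, adjusted p = 6.6e-08. Hmox1, heme oxygenase, which opens heme and releases its iron (chromosome 8, 77617517 to 77624492), held 299, 283 and 311 TPM at Day6 and 979, 1222 and 1088 TPM at Day8. The groups did not overlap and the change was 1.87 ± 0.09, adjusted p = 4.1e-09. Adrb3, the beta3-adrenergic receptor through which catecholamines start lipolysis in mouse fat cells (chromosome 8, 28336248 to 28340060), held 27.7, 24.1 and 24.2 TPM at Day6. At Day8 it held 106, 74.9 and 71.9 TPM, highest in replicate 1, without overlap (1.68 ± 0.14, adjusted p = 9.5e-07).

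Further genes rose by more than 1.5 log2 units with groups that did not overlap. Car9, a carbonic anhydrase at the cell surface, held 5.24, 3.73 and 3.88 TPM at Day6 and 21.5, 20.04 and 15.1 TPM at Day8 (1.91 ± 0.16, adjusted p = 8.6e-07). Trf, transferrin, the carrier of iron in serum, held 9.35, 4.75 and 8.71 TPM at Day6 and 35.2, 28.95 and 26.9 TPM at Day8 (1.90 ± 0.20, adjusted p = 8.6e-06). F13a1, the A subunit of the crosslinking factor XIII, held 3.81, 3.01 and 3.74 TPM at Day6 and 19.9, 15.2 and 13.6 TPM at Day8 (1.92 ± 0.14, adjusted p = 3.4e-07). Day6 replicate 2 was the lowest of the 6 libraries in each of these. Sncg, gamma-synuclein, a protein of fat and nerve cells, held 72.1, 51.6 and 67.1 TPM at Day6 and stood closely together at 210.5, 204 and 211 TPM at Day8 (1.71 ± 0.19, adjusted p = 1.3e-05). Ier3, an immediate early gene, held 15.3, 12.8 and 12.6 TPM at Day6 and 44.03, 51.7 and 44.5 TPM at Day8 (1.71 ± 0.11, adjusted p = 1.2e-07), and Stbd1, a glycogen-binding protein, 6.29, 6.74 and 7.52 TPM at Day6 and 22.1, 23.4 and 25.6 TPM at Day8 (1.66 ± 0.14, adjusted p = 1.1e-06). The highest fold change of all, that of the NF-kappaB subunit Relb (3.21 ± 1.10, adjusted p = 0.047), rested on values of 21.03, 0 and 0 TPM at Day6 against 24.6, 26.9 and 23.7 TPM at Day8. It is listed at 0 in Day6 replicates 2 and 3, and 11 of 17 alternative analyses ended the call.

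In TPM the largest gain among all tested genes was that of Bsg, basigin, a membrane glycoprotein that escorts lactate transporters to the cell surface (chromosome 10, 79167103 to 79174724). It held 2469.8, 2124 and 2528 TPM at Day6 and 4999, 5023 and 5197 TPM at Day8. The Day8 libraries lay within a narrow band above all Day6 libraries (1.10 ± 0.05, adjusted p = 4.1e-09). Ero1l, an oxidase that forms disulfide bonds in the endoplasmic reticulum, held 619.7, 575 and 632 TPM at Day6 and 1442, 1687 and 1444 TPM at Day8, again without overlap (1.32 ± 0.13, adjusted p = 3.6e-06). The ferritin light chain gene Ftl1, which belongs to the iron store of the cell and has near-identical copies that can share reads, held 5488, 5248 and 5359 TPM at Day6 and 7252, 7426 and 7496 TPM at Day8 (0.46 ± 0.04, adjusted p = 1.1e-06).

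**Figure D3:**
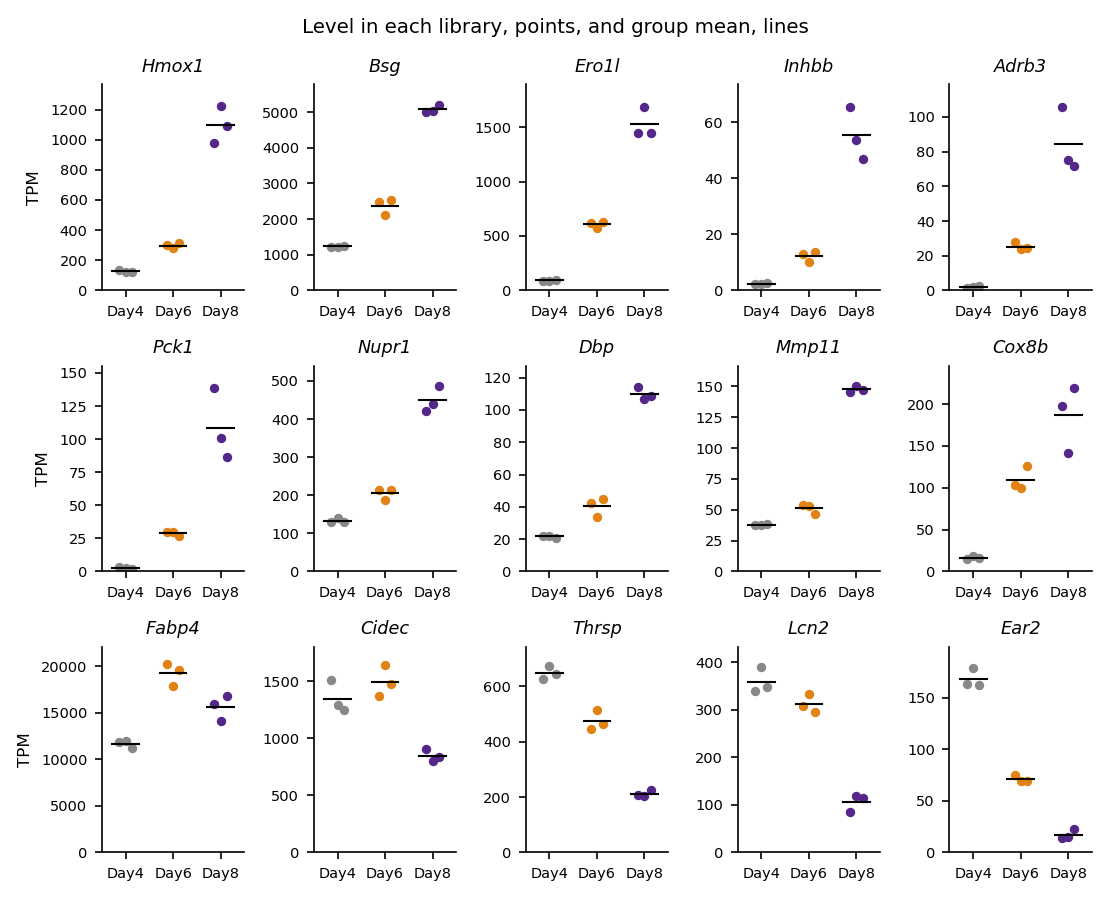
Level in TPM (vertical axes, from 0) of 15 genes in each Day4, Day6 and Day8 library, with 1 point per library and a line at the group mean. In all 15 genes the 3 Day8 libraries lie outside the range of the 3 Day6 libraries, above it in the upper 2 rows and below it in the bottom row.

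Of 38 genes that mark the mature fat cell, 35 passed the filter, 12 were called higher and 13 lower, and the median change was 0.17 against 0.01 for all tested genes. The 6 libraries alone gave 11 higher and 6 lower, and with array weights 7 were called lower. The increases included secreted proteins and a steroid enzyme. Lep, leptin, the satiety hormone of fat tissue, rose from 1.85, 1.15 and 1.26 TPM at Day6 to 6.49, 5.09 and 4.06 TPM at Day8, a low level in these cells (1.35 ± 0.15, adjusted p = 1.3e-05). Cfd, adipsin, a protease of the complement system, rose from 2141, 1809 and 2168 TPM at Day6 to 3209.9, 2606 and 3157 TPM at Day8 (0.55 ± 0.12, adjusted p = 0.0031). Hsd11b1, which regenerates active glucocorticoid inside the cell, rose from 344, 289.7 and 323 TPM at Day6 to 501, 522 and 527 TPM at Day8 (0.70 ± 0.11, adjusted p = 0.00029). In all of them each Day8 library exceeded each Day6 library.

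The decreases included abundant genes of lipid handling. Fabp4, a fatty acid binding protein and the gene of highest level in these cells among those named, held 20216, 17897 and 19604 TPM at Day6 and 15915, 14156 and 16814 TPM at Day8. The groups did not overlap and the change was -0.30 ± 0.08, adjusted p = 0.018. In TPM this was the largest loss among all tested genes. Fabp4 was not called in the fit of the 6 libraries alone or without Day6 replicate 1, Day6 replicate 3 or Day8 replicate 2. Under quantile normalization its change was 0. That scaling gives genes of equal rank the same value, so it cannot show a change in a gene that keeps its rank. Retn, the adipokine resistin, held 1736, 1653 and 1672 TPM at Day6 and 1290.4, 1099 and 1356 TPM at Day8 (-0.44 ± 0.11, adjusted p = 0.0072), not called with array weights. The apolipoprotein gene Apoe held 200.2, 175 and 218 TPM at Day6 and 153, 113 and 135 TPM at Day8 (-0.57 ± 0.16, adjusted p = 0.015), not called with array weights or without Day6 replicate 3 or Day8 replicate 2.

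Several defining fat cell genes were not called. The fold change of Adipoq was 0.18 ± 0.15, adjusted p = 0.44 and that of Plin1 0.26 ± 0.18, adjusted p = 0.34, and in both the 3 Day8 libraries lay above the 3 Day6 libraries. For Slc2a4, the insulin-regulated glucose transporter GLUT4, the libraries held 128, 133 and 120.0 TPM at Day6 and 160.5, 170.3 and 164 TPM at Day8. Its change of 0.37 ± 0.14, adjusted p = 0.069 missed the threshold over 18 libraries and passed it in the fit of the 6 libraries alone (adjusted p = 0.017). Lpl, the lipase that frees fatty acids from lipoproteins, overlapped fully between 5739, 5931 and 5438 TPM at Day6 and 5348, 5994 and 5846 TPM at Day8 (0.01 ± 0.07, adjusted p = 0.96). Under quantile normalization Lpl was called at -0.30.

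More genes of fatty acid synthesis were called higher than lower. Of 29 genes 26 passed, 12 were called higher and 4 lower, with a median of 0.24, and the 6 libraries alone gave 9 higher and 3 lower. Scd1, the desaturase that makes monounsaturated fatty acids, held 3869, 4531 and 3569.8 TPM at Day6 and 5621, 6513 and 5263 TPM at Day8 without overlap (0.54 ± 0.09, adjusted p = 0.00049). Under quantile normalization its change was 0.23. Pnpla3, a lipid hydrolase and acyltransferase, held 16.5, 15.9 and 13.9 TPM at Day6 and 33.5, 35.9 and 28.2 TPM at Day8 (1.03 ± 0.12, adjusted p = 1.6e-05). The desaturase genes Fads1 and Fads3 rose by 0.49 ± 0.08 and 0.77 ± 0.06. The citrate-cleaving enzyme Acly and the NADPH source Me1 were also among those called higher. Fasn, fatty acid synthase itself, held 301, 463 and 326 TPM at Day6 and 436, 463 and 350.4 TPM at Day8 with overlap and was not called (0.21 ± 0.13, adjusted p = 0.25), and Srebf1, which encodes the factor SREBP1, was not called either (-0.09 ± 0.08, adjusted p = 0.43). Each passed the threshold when 1 library was left out: Fasn without Day6 replicate 2 (0.40) and Srebf1 without Day8 replicate 1 (-0.19).

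Genes of this list also fell. Thrsp, also known as Spot 14, a regulator of fatty acid synthesis (chromosome 7, 104561443 to 104566060), held 444, 514 and 463 TPM at Day6 and 207, 203 and 226 TPM at Day8. Every Day8 library stood under every Day6 library (-1.16 ± 0.07, adjusted p = 1.2e-07). The chain elongation genes Hsd17b12 (-0.41 ± 0.05), Elovl1 (-0.41 ± 0.10) and Elovl6 (-0.34 ± 0.09) were lower, the last not called in the fit of the 6 libraries alone.

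Triglyceride assembly and glycerol supply showed no common direction. Of 22 measured genes 5 were called higher and 7 lower, the latter 4 without Day6 replicate 2 or without Day8 replicate 3. The 6 libraries alone gave 5 and 3. Pck1, of the path from pyruvate to glycerol 3-phosphate in fat cells (chromosome 2, 172978574 to 172984775), held 30.03, 29.8 and 27.1 TPM at Day6 and 139, 101 and 86.6 TPM at Day8. The 3 Day8 libraries were spread and all stood above Day6 (1.84 ± 0.14, adjusted p = 4.6e-07). Gpd1, also of glycerol 3-phosphate supply, moved the opposite way, from 1342, 1513 and 1207 TPM at Day6 to 1044, 1030.1 and 910.1 TPM at Day8 (-0.44 ± 0.08, adjusted p = 0.0011). Agpat2, an acyltransferase of the same path, held 622, 682 and 580.2 TPM at Day6 and 471, 446 and 432 TPM at Day8 (-0.48 ± 0.06, adjusted p = 5.3e-05). Lpin2 and Lpin3, phosphatases of the step before triglyceride, rose by 0.44 ± 0.08 and 0.71 ± 0.13. Dgat2, of the last step, changed by -0.23 ± 0.07, adjusted p = 0.022. It was not called in the fit of the 6 libraries alone, with array weights, or without Day6 replicate 2, Day8 replicate 2 or Day8 replicate 3.

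Among 21 measured genes of the lipid droplet and lipolysis, 8 were called higher and 4 lower, the latter 2 without Day6 replicate 2 or without Day8 replicate 3. The 6 libraries alone gave 6 and 2. G0s2, the inhibitor of the triglyceride lipase ATGL, held 1265, 994 and 1152 TPM at Day6 and 1903, 1701 and 1836 TPM at Day8 (0.68 ± 0.10, adjusted p = 0.00017). The lipase gene Pnpla2 held 759.5, 883 and 744 TPM at Day6 and 679, 698 and 661 TPM at Day8 (-0.22 ± 0.06, adjusted p = 0.019), a change not called in the fit of the 6 libraries alone, with array weights, under quantile normalization, or without Day6 replicate 2 or Day8 replicate 3. Its activator Abhd5 (CGI-58) held 178, 178 and 174 TPM at Day6 and 138, 147 and 130.5 TPM at Day8 (-0.35 ± 0.05, adjusted p = 0.00022). The inhibitor gene stood higher, and the activator gene lower, in each Day8 library than in each Day6 library. Lipe, the hormone-sensitive lipase, overlapped between the groups and was not called (-0.16 ± 0.13, adjusted p = 0.44). Pde3b, which degrades cAMP under insulin, rose from 21.5, 23.7 and 19.6 TPM at Day6 to 40.03, 35.9 and 34.9 TPM at Day8 (0.75 ± 0.10, adjusted p = 9.2e-05).

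Droplet proteins of the CIDE family moved in opposite directions. Cidec, the droplet fusion protein of white fat cells, held 1369, 1642 and 1472 TPM at Day6 and 906, 797 and 835 TPM at Day8. No Day8 library reached the Day6 range (-0.82 ± 0.16, adjusted p = 0.0019). Cidea, its relative of brown fat, held 0.701, 1.48 and 1.16 TPM at Day6 and 4.91, 1.89 and 2.53 TPM at Day8 (0.91 ± 0.20, adjusted p = 0.004), a few TPM throughout and not called in the fit of the 6 libraries alone. With a pseudocount of 0.1 Cidec was not called, at a change of -0.82.

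Genes of brown and beige fat, in which mitochondria burn fuel for heat, were mostly too low to test: 9 of 24 passed the filter, 5 were called higher and 0 lower (3 and 0 in the 6 libraries alone), and 9 of the 24 were at 0 in all 6 libraries. Ucp1, the uncoupling protein that defines these cells, was listed at 0 in all of them. Those called higher included muscle and heart forms of cytochrome oxidase subunits. Cox8b held 103, 100.02 and 126 TPM at Day6 and 198, 141 and 219.8 TPM at Day8 (0.74 ± 0.14, adjusted p = 0.0012). Cox7a1 held 116, 62.5 and 101 TPM at Day6 and 232, 224 and 272 TPM at Day8 (1.41 ± 0.34, adjusted p = 0.008), a call that array weights or a pseudocount of 0.1 ended. Cox6a2, a further such subunit from outside the list, held 4.195, 2.19 and 4.22 TPM at Day6 and 17.3, 19.6 and 22.96 TPM at Day8 (2.23 ± 0.36, adjusted p = 0.00036), and a pseudocount of 0.1 ended its call.

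The myoglobin gene rose as well. Mb, the oxygen-binding protein of muscle, held 4.65, 3.83 and 5.32 TPM at Day6 and 12.01, 13.01 and 12.8 TPM at Day8 without overlap (1.29 ± 0.13, adjusted p = 5.9e-06). It was the only gene called higher among 14 skeletal muscle markers, of which 12 were at 0 in all 6 libraries. The fibre gene Tnnc2 was called lower (-0.78 ± 0.25, adjusted p = 0.036), with overlapping groups. It was not called in the 6 libraries alone, with a pseudocount of 0.1, array weights or quantile normalization, or without Day6 replicate 2, Day8 replicate 1 or Day8 replicate 2. Ucp3, an uncoupling protein of muscle, held 3.67, 2.697 and 3.19 TPM at Day6 and 6.07, 7.48 and 4.99 TPM at Day8 (0.77 ± 0.14, adjusted p = 0.0011), not called with a pseudocount of 0.1.

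The respiratory chain showed no common direction. All 41 of its genes passed, 7 were called higher, 11 without Day8 replicate 2, and 10 lower, 5 without Day8 replicate 1. The 6 libraries alone gave 2 and 4. The sum of its levels overlapped between the groups. Complex II was split: Sdha and Sdhb were called higher, Sdhd was called lower and Sdhc was not called. The change of Sdhb was 0.42 ± 0.09, adjusted p = 0.0044, not called in the fit of the 6 libraries alone. Cytochrome c, Cycs, fell from 260.0, 237 and 247 TPM at Day6 to 174, 206 and 201 TPM at Day8 (-0.36 ± 0.06, adjusted p = 0.0006), and Atp5g1, a ring subunit of ATP synthase, from 217, 192 and 173 TPM at Day6 to 123, 125 and 134 TPM at Day8 (-0.60 ± 0.13, adjusted p = 0.0036). Fatty acid oxidation had 4 genes called higher and 6 lower of 36, with 4 and 1 in the 6 libraries alone. The citrate cycle had 4 and 4 of 32, with 2 and 1 in the 6 libraries alone. In the citrate cycle 2 were lower when any Day6 replicate or Day8 replicate 1 was left out. Of all tested genes 11.1% were called higher and 12.3% lower.

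Glucose use was among the lists with the most members called higher. Of 30 measured genes 12 were called higher and 2 lower, the median was 0.22, and the 6 libraries alone gave 9 higher and 0 lower. They included the transporters Slc2a1 and Slc16a1 for glucose and lactate and several glycolytic enzymes. Pfkp, a phosphofructokinase of the committed step of glycolysis, held 70.6, 64.05 and 68.2 TPM at Day6 and 117, 124 and 106 TPM at Day8 (0.77 ± 0.08, adjusted p = 1.3e-05). Hk2, the hexokinase of insulin-sensitive tissues, held 93.1, 111 and 97.9 TPM at Day6 and 132, 136 and 119.5 TPM at Day8 (0.36 ± 0.09, adjusted p = 0.0095). Of the glycogen genes in the list, Gys1, Gys2, Pygb and Pygl were measured and not called, while 2 were called higher. Gbe1, the branching enzyme, held 111, 97.5 and 109.5 TPM at Day6 and 163, 188 and 162 TPM at Day8 (0.68 ± 0.10, adjusted p = 0.00018), and Ppp1r3c, which targets a phosphatase to glycogen, held 190.2, 195 and 184 TPM at Day6 and 279, 286 and 282 TPM at Day8 (0.57 ± 0.09, adjusted p = 0.00034). In these 4 genes the groups did not overlap. The 2 genes called lower, G6pdx (-0.22 ± 0.06) and Taldo1 (-0.17 ± 0.04), belong to the pentose phosphate path, and neither was called in the fit of the 6 libraries alone. G6pdx was also not called without Day6 replicate 2, Day8 replicate 1 or Day8 replicate 3, and Taldo1 without Day6 replicate 1.

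In insulin signalling, 5 of 35 measured genes were called higher and 4 lower, the latter 2 without Day6 replicate 2, without Day8 replicate 3 or in the 6 libraries alone. The main counts were near the shares of all tested genes, 11.1% higher and 12.3% lower. Pik3r1, the regulatory subunit of PI 3-kinase, held 106, 149 and 109.8 TPM at Day6 and 59.9, 70.1 and 67.7 TPM at Day8, lower in every library (-0.86 ± 0.11, adjusted p = 5.2e-05). Grb14, an adaptor that dampens the insulin receptor, held 9.24, 10.8 and 8.72 TPM at Day6 and 15.7, 14.95 and 15.5 TPM at Day8 (0.63 ± 0.11, adjusted p = 0.00062). Trib3, a pseudokinase that binds AKT and is also a target of the integrated stress response, held 110.5, 104 and 127 TPM at Day6 and 246, 208 and 219 TPM at Day8 (0.98 ± 0.11, adjusted p = 1.3e-05). Its relative Trib1 moved down, from 11.7, 12.2 and 13.5 TPM at Day6 to 7.09, 6.65 and 6.57 TPM at Day8 (-0.79 ± 0.08, adjusted p = 5.9e-06).

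Many genes of the integrated stress response rose. This pathway slows translation through the factor eIF2 and turns on ATF4 and its targets, and the list also holds the unfolded protein response of the endoplasmic reticulum. Of 43 measured genes 14 were called higher and 4 lower, and the 6 libraries alone gave 13 and 2. Nupr1, a stress-induced chromatin protein, held 215, 189 and 214 TPM at Day6 and 421, 440.0 and 487 TPM at Day8 (1.12 ± 0.09, adjusted p = 1e-06). Atf3, a transcription factor induced by ATF4, held 5.09, 4.48 and 4.06 TPM at Day6 and 10.1, 14.6 and 9.79 TPM at Day8 (1.16 ± 0.18, adjusted p = 0.00026), not called with a pseudocount of 0.1. Aldh1l2, of mitochondrial folate metabolism, held 30.2, 33.9 and 29.03 TPM at Day6 and 60.6, 84.8 and 63.3 TPM at Day8 (1.13 ± 0.14, adjusted p = 2.9e-05), and the stress hormone Gdf15 held 3.99, 2.69 and 4.16 TPM at Day6 and 11.2, 9.02 and 7.05 TPM at Day8 (1.13 ± 0.16, adjusted p = 0.00014). The groups did not overlap in any of these. Atf4, Ddit3 (CHOP), Chac1, Ppp1r15a, Pck2 and the chaperones Hspa5 and Hsp90b1 were also called higher. Cth (-0.51 ± 0.07) and Slc7a5 (-0.37 ± 0.07), which serve amino acid supply, were called lower.

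The promoters of genes that rose in this list can be read for the letters of the C/EBP-ATF response element, to which ATF4 binds with a partner. The letters TGATGNAA were searched on both strands of RefSeq promoters of the GRCm38.p6 build, from 250 bases before to 50 after the start of each gene. They were found in 5 of 13 promoters of genes called higher (1 of the 14 was not matched), namely Trib3, Chac1, Atf3, Nupr1 and Pck2. Of all measured members 8 of 38 promoters held them, including those of Herpud1, Asns and Slc7a11, which were not called. The share was 4.06% of all 27025 promoters and 2.03% of the 9308 matched to tested genes. It was 3.19% of the 1004 promoters of all genes called higher. The motif was chosen after the calls were seen, and a match of letters is not a bound site. The 250 bases before the start of Nupr1 (chromosome 7, minus strand) and Atf3 (chromosome 1, minus strand) are shown because these genes rose in each Day8 library and hold the match upstream, in both 110 bases before the start. They run 5′ to 3′ on the gene's strand, and capitals mark the match, which is here the reverse complement of the letters.
Nupr1: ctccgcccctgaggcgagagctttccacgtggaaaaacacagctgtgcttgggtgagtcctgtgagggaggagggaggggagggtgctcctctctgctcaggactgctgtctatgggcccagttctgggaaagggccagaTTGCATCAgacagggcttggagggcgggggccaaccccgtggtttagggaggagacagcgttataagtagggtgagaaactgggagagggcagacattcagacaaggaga
Atf3: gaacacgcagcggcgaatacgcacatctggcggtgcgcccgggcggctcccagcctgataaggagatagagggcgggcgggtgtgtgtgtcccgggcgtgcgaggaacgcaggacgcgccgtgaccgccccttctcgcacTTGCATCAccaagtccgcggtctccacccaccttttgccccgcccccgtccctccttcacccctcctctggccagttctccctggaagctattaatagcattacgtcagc

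Antioxidant genes did not share a direction: of 38 measured, 7 were called higher, or 4 under median-ratio scaling, and 10 lower, with 3 and 8 in the 6 libraries alone. Next to Hmox1, Gclm, of glutathione synthesis, rose from 49.3, 54.5 and 53.96 TPM at Day6 to 85.5, 85.4 and 77.8 TPM at Day8 (0.65 ± 0.06, adjusted p = 5e-06). Aldh3a1, an aldehyde dehydrogenase, fell from 6.68, 9.79 and 9.07 TPM at Day6 to 1.99, 4.900 and 3.63 TPM at Day8 (-1.12 ± 0.21, adjusted p = 0.0014), and Gsta3, a glutathione transferase, from 2.83, 2.97 and 2.71 TPM at Day6 to 1.19, 1.13 and 0.962 TPM at Day8 (-0.88 ± 0.13, adjusted p = 0.00018). Genes of iron handling moved in both directions. Beside the increases of Hmox1, Trf and Ftl1, the transferrin receptor Tfrc, which takes up iron, held 45.8, 57.6 and 55.03 TPM at Day6 and 31.6, 26.4 and 20.9 TPM at Day8, lower in every library (-0.99 ± 0.13, adjusted p = 8.4e-05).

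Of 43 measured genes of the lysosome and autophagy, 11 were called higher and 2 lower, with 6 and 1 in the fit of the 6 libraries alone. Without Day6 replicate 1, Day6 replicate 2 or Day8 replicate 1, 1 was lower. Ulk1, the kinase that starts autophagy, held 21.7, 20.7 and 23.6 TPM at Day6 and 59.5, 52.4 and 47.2 TPM at Day8 (1.23 ± 0.18, adjusted p = 0.0002). Sqstm1, the cargo receptor p62, held 392.3, 394 and 418 TPM at Day6 and 572, 537 and 534 TPM at Day8 (0.45 ± 0.05, adjusted p = 1.3e-05). Map1lc3a and Gabarapl1, coats of the autophagosome, rose by 0.49 ± 0.07 and 0.35 ± 0.05, and the lysosomal proteases Ctsd, Ctsl, Ctsz and Lgmn were called higher as well. In these 4 genes of autophagy each Day8 library stood above the Day6 range. The protease Ctsk fell (-0.40 ± 0.08, adjusted p = 0.002).

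Clock genes, which turn over in a daily cycle of transcriptional feedback, were more often called higher than lower. Of 16 measured genes 7 were called higher and 1 lower, with a median of 0.41, and the 6 libraries alone gave 6 and 1. Dbp, an output factor of the clock (chromosome 7, 52960617 to 52965573), held 42.2, 33.4 and 45.1 TPM at Day6 and 114, 107 and 109 TPM at Day8. The Day8 libraries stood close together above all Day6 libraries (1.44 ± 0.11, adjusted p = 5.7e-07). Bhlhe40, a repressor of the loop, held 90.2, 92.8 and 85.8 TPM at Day6 and 175, 201 and 184 TPM at Day8 (1.05 ± 0.07, adjusted p = 1.9e-07). Nr1d2, a nuclear receptor of the loop, held 13.6, 14.1 and 13.3 TPM at Day6 and 27.99, 27.5 and 25.6 TPM at Day8 (0.94 ± 0.09, adjusted p = 5.1e-06), and Per3 held 9.51, 6.15 and 7.01 TPM at Day6 and 15.1, 16.01 and 20.97 TPM at Day8 (1.11 ± 0.16, adjusted p = 0.00017). Per1, which is also a glucocorticoid target, was the gene called lower, at 34.5, 42.7 and 31.99 TPM at Day6 and 22.4, 26.5 and 23.9 TPM at Day8 (-0.56 ± 0.11, adjusted p = 0.0014). The labels give no hour of harvest, so the hour of the day and the day of culture cannot be told apart.

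The fibroblast matrix was called higher in 16 and lower in 5 of 40 measured genes, with 11 and 3 in the fit of the 6 libraries alone. Mmp11, a matrix protease that stromal cells make (chromosome 10, 75385967 to 75395247), held 53.9, 52.8 and 46.6 TPM at Day6 and 146, 150.3 and 147 TPM at Day8. The groups were tight and far apart (1.52 ± 0.10, adjusted p = 1.1e-07). Timp3, an inhibitor of matrix proteases, held 2.28, 1.36 and 1.75 TPM at Day6 and 6.27, 5.68 and 5.82 TPM at Day8 (1.32 ± 0.15, adjusted p = 1.7e-05). Fbn1, fibrillin, held 31.8, 45.1 and 34.5 TPM at Day6 and 87.2, 84.6 and 60.3 TPM at Day8 (1.04 ± 0.15, adjusted p = 0.00018). Fibrillar collagen genes were higher in each Day8 library, and replicate 1 was the highest. Col3a1 held 3058, 3544 and 3365 TPM at Day6 and 5873, 4434 and 4186 TPM at Day8 (0.53 ± 0.10, adjusted p = 0.0018) and Col1a2 2495, 2978 and 2793 TPM at Day6 and 5284, 3818 and 3574 TPM at Day8 (0.60 ± 0.11, adjusted p = 0.0011). Col1a1 held 1381, 1852 and 1589 TPM at Day6 and 3569, 2289 and 2186 TPM at Day8 (0.71 ± 0.14, adjusted p = 0.0021), not called in the fit of the 6 libraries alone, and quantile normalization ended the call of Col3a1 (0.30) and gave 0.38 for Col1a2. The proteoglycan genes Ogn (-0.51 ± 0.13) and Dcn (-0.42 ± 0.12) were called lower, as was Loxl1, which crosslinks elastin (-0.49 ± 0.07). Dcn was not called with array weights or without Day6 replicate 2 or Day8 replicate 1.

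Basement membrane, the sheet of laminin and collagen that surrounds each fat cell, had 9 of 21 measured genes called higher and 0 lower, 3 of them in the fit of the 6 libraries alone. Lamb3, a laminin chain, held 10.7, 10.9 and 11.4 TPM at Day6 and 22.6, 21.9 and 20.8 TPM at Day8 (0.92 ± 0.10, adjusted p = 1.7e-05). Col15a1, a collagen of the outer basement membrane, held 94.9, 104 and 90.2 TPM at Day6 and 183, 173 and 145 TPM at Day8 (0.79 ± 0.11, adjusted p = 7.5e-05). Lamb2, Lamc1, Lama5 and Col4a5 were also called higher, though Lama5 was not called in the fit of the 6 libraries alone. Contractile genes had 3 higher and 6 lower of 23, with 2 and 1 in the 6 libraries alone, and Des, desmin, was the highest of them (0.78 ± 0.15, adjusted p = 0.0013).

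Most measured genes of cell division fell. In DNA replication 43 of 44 genes passed, 0 were called higher and 34 lower, with a median of -0.47. In mitosis 44 of 46 passed, 0 were called higher and 30 lower, with a median of -0.56. The 6 libraries alone gave 21 and 20 called lower, against 4.92% of all tested genes. Summed over its list, mitosis held 867 to 896 TPM in the Day6 libraries and 594 to 599 TPM in the Day8 libraries, and DNA replication 1262 to 1318 TPM and 901 to 921 TPM, with no overlap between the days.

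Mki67, the marker of cycling cells Ki-67, held 14.3, 17.6 and 13.6 TPM at Day6 and 5.01, 7.602 and 6.39 TPM at Day8 (-1.14 ± 0.14, adjusted p = 2.9e-05). Its mean in Control was 124 TPM, so these levels were low in both groups. Ccna2, cyclin A2, held 28.2, 27.03 and 29.1 TPM at Day6 and 13.6, 12.8 and 12.7 TPM at Day8 (-1.06 ± 0.07, adjusted p = 1.2e-07). Birc5, survivin, of the mitotic spindle, held 36.6, 35.5 and 38.4 TPM at Day6 and 10.8, 10.99 and 21.4 TPM at Day8 (-1.36 ± 0.18, adjusted p = 8.5e-05), highest at Day8 in replicate 3. Rrm2 and Tk1, which supply deoxynucleotides, fell from 48.3, 48.3 and 44.7 TPM at Day6 to 19.2, 21.9 and 24.1 TPM at Day8 (-1.09 ± 0.07, adjusted p = 1.3e-07) and from 67.5, 51.9 and 56.2 TPM at Day6 to 28.2, 27.1 and 26.5 TPM at Day8 (-1.07 ± 0.11, adjusted p = 5.1e-06). Mcm7, of the replicative helicase, held 60.8, 67.8 and 39.7 TPM at Day6 and 25.7, 28.5 and 24.04 TPM at Day8 (-1.04 ± 0.13, adjusted p = 5.2e-05). In each of these genes every Day8 library stood under every Day6 library.

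Regulators of the cycle were split. The G1 cyclins Ccnd1 (-0.55 ± 0.09) and Ccne1 (-0.39 ± 0.09) fell, while Rb1, the retinoblastoma repressor, rose from 21.6, 23.1 and 22.6 TPM at Day6 to 30.6, 36.7 and 27.9 TPM at Day8 (0.47 ± 0.12, adjusted p = 0.0074). Gadd45a, a growth arrest gene, rose from 117, 93.8 and 119 TPM at Day6 to 204, 185 and 214 TPM at Day8 (0.87 ± 0.10, adjusted p = 1.8e-05), and Ccng2, a cyclin of resting cells, rose by 0.40 ± 0.06. Over the whole list of cycle arrest and p53 targets, 5 of 32 were called higher, or 3 without Day6 replicate 1 or without Day6 replicate 3, and 5 lower, with 3 and 3 in the 6 libraries alone. The shares of all tested genes were 11.1% higher and 12.3% lower.

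Promoters of mitotic genes often carry the cell cycle homology region, letters through which the DREAM and MuvB complexes act. The letters TTTGAA were found on either strand of 20 of 28 promoters of mitotic genes called lower and 27 of 39 promoters of all measured members, so that 7 of the 11 members not called held them too. The share among all 27025 RefSeq promoters of this length was 18.1%. It was 11.8% among the 9308 matched to tested genes and 15.7% among the 1153 of all genes called lower. This motif was also chosen after the calls were seen. Shown are the 250 bases before the start (GRCm38.p6, minus strand for all 3) of Mki67 on chromosome 7, Cdc20 on chromosome 4 and Top2a on chromosome 11. They were selected after their values were seen, as genes that fell and hold the match before the start. Capitals mark TTTGAA or its reverse complement, which begins 116 and 98 bases before the start of Mki67, 18 before that of Cdc20, and 179 and 23 before that of Top2a.
Mki67: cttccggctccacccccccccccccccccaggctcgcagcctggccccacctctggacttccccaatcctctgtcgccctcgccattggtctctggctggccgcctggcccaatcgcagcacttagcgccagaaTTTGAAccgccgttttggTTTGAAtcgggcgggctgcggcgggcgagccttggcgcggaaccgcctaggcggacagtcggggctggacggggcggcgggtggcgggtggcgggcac
Cdc20: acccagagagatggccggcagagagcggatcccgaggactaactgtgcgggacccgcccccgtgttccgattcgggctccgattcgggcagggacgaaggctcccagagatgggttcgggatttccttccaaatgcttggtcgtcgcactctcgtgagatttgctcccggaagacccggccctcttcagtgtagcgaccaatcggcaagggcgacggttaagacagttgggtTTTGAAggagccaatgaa
Top2a: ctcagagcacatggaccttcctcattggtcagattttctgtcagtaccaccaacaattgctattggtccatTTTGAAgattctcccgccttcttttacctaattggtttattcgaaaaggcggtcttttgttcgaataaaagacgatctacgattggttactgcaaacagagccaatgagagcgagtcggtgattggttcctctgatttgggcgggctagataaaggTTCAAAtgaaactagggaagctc

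Cdc20, the activator of the anaphase-promoting complex, held 54.8, 48.4 and 44.7 TPM at Day6 and 30.05, 27.4 and 30.7 TPM at Day8 (-0.72 ± 0.07, adjusted p = 2.6e-06). Top2a, the topoisomerase that untangles chromosomes, held 38.01, 43.7 and 40.2 TPM at Day6 and 25.97, 27.4 and 26.7 TPM at Day8 (-0.59 ± 0.06, adjusted p = 1e-05). Both were lower in every Day8 library.

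**Figure D4:**
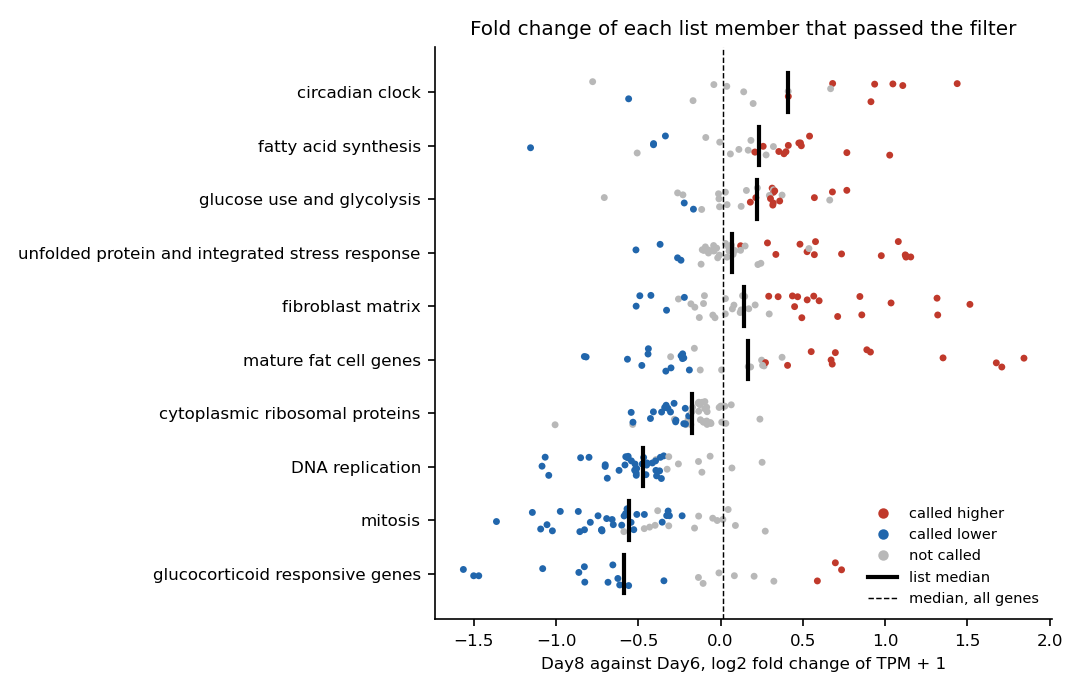
Log2 fold change of TPM + 1 from Day6 to Day8 (horizontal axis) of each member that passed the filter, for 10 lists. Points are genes, red where called higher, blue where called lower and grey otherwise, black bars are list medians and the dashed line is the median of all tested genes, 0.01. The medians of DNA replication, mitosis and glucocorticoid responsive genes lie at -0.47, -0.56 and -0.59.

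Most of the measured glucocorticoid responsive genes fell. Of 22 measured genes 13 were called lower and 3 higher, with a median of -0.59, and the 6 libraries alone gave 11 and 2. Fkbp5, a chaperone partner of the glucocorticoid receptor (chromosome 17, 28535698 to 28623094), held 542, 553 and 576 TPM at Day4, 91.3, 125 and 108 TPM at Day6 and 35.4, 38.9 and 39.9 TPM at Day8. Its fall from Day6 to Day8 was -1.47 ± 0.08, adjusted p = 1.8e-08, without overlap. Tsc22d3, the leucine zipper protein GILZ, held 62.8, 80.1 and 76.8 TPM at Day6 and 33.4, 30.8 and 37.8 TPM at Day8 (-1.08 ± 0.12, adjusted p = 1.4e-05). Sult1a1, a sulfotransferase, held 112, 143 and 122 TPM at Day6 and 37.4, 46.9 and 46.6 TPM at Day8 (-1.50 ± 0.15, adjusted p = 6.5e-06). Ddit4, a brake on mTORC1, went the other way (0.74 ± 0.07, adjusted p = 2.7e-06). So did Hsd11b1, given above.

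Several genes of secreted acute phase proteins also fell, and a link to the fall of the glucocorticoid responsive genes was not tested. Lcn2 is a member of both lists, the lowest in each, and is counted in each. Saa3, described further below, went the other way (0.59). Lcn2, lipocalin 2, which binds bacterial iron carriers (chromosome 2, 32240157 to 32243259), held 308, 334 and 295 TPM at Day6 and 84.7, 119 and 114 TPM at Day8. The Day8 libraries were all lower (-1.56 ± 0.14, adjusted p = 1.6e-06). The orosomucoid genes Orm1, Orm2 and Orm3 fell by 0.83 ± 0.13, 1.46 ± 0.25 and 1.94 ± 0.18, though they are near-identical copies whose reads can be shared. A pseudocount of 0.1 ended the call of Orm1. Complement C3 held 1154, 1678 and 1250.2 TPM at Day6 and 799, 982 and 799 TPM at Day8 (-0.65 ± 0.12, adjusted p = 0.0011), while C4b rose at a low level, from 1.21, 1.503 and 1.55 TPM at Day6 to 3.35, 3.43 and 2.89 TPM at Day8 (0.80 ± 0.14, adjusted p = 0.00061). Over the list of chemokines, cytokines and acute phase genes 6 of 31 were called higher, or 3 without Day6 replicate 1 or without Day8 replicate 2, and 9 lower, with 3 and 9 in the 6 libraries alone.

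Among the steepest falls were those of the eosinophil-associated ribonucleases. Ear2 held 163, 178 and 162 TPM at Day4, 74.97, 69.3 and 68.9 TPM at Day6 and 14.4, 14.6 and 22.6 TPM at Day8 (-2.02 ± 0.15, adjusted p = 2.9e-07). Ear12 held 15.1, 15.9 and 17.9 TPM at Day6 and 3.74, 0.459 and 2.48 TPM at Day8 (-2.58 ± 0.30, adjusted p = 2e-05), and Ear3 held 19.9, 29.2 and 27.4 TPM at Day6 and 13.3, 4.42 and 2.81 TPM at Day8 (-1.98 ± 0.33, adjusted p = 0.00061). These genes are near-identical copies, so the split of reads among them is uncertain, but each fell and none of the groups overlapped. Clca3a1, a secreted chloride channel accessory protein, held 14.2, 21.9 and 16.4 TPM at Day6 and 4.66, 4.07 and 5.101 TPM at Day8 (-1.70 ± 0.12, adjusted p = 1.9e-07). S100a4, a calcium-binding protein of fibroblasts, held 1024, 923 and 1038 TPM at Day6 and 493, 438 and 554 TPM at Day8 (-1.01 ± 0.07, adjusted p = 1.9e-07). Other large falls rested on uneven libraries. The histone gene H2ac18, which has near-identical copies, held 72.5, 74.5 and 73.6 TPM at Day6 and 55.8, 2.43 and 1.71 TPM at Day8 (-3.20 ± 0.76, adjusted p = 0.0072), not called in the fit of the 6 libraries alone. The change of Add3, -2.88 ± 0.99, adjusted p = 0.049, was not called in 13 of 17 alternative analyses.

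Cytoplasmic ribosomal protein genes had 16 of 47 called lower and 0 higher, with a median of -0.17, and 2 were called lower in the fit of the 6 libraries alone. Rplp0, of the ribosomal stalk, held 3385, 3117 and 3325 TPM at Day6 and 2258, 2520.5 and 2634 TPM at Day8 (-0.41 ± 0.05, adjusted p = 5.6e-05). Rpl35 held 2807, 2427 and 2732 TPM at Day6 and 1679, 2051 and 2225 TPM at Day8 (-0.43 ± 0.08, adjusted p = 0.0014), not called in that smaller fit. These genes have many processed copies in the genome that can share reads. Housekeeping genes were called higher in 4 and lower in 6 of 20, and without Day6 replicate 3 or without Day8 replicate 2 in 2 higher. The 6 libraries alone gave 1 and 5.

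Of 29 measured transcription factors of adipogenesis, 1 was called higher and 4 lower. Over all tested genes 11.1% were called higher and 12.3% lower. Without Day6 replicate 2, Day8 replicate 2 or Day8 replicate 3, 2 were higher, and the 6 libraries alone gave 1 higher and 2 lower. C/EBP delta, encoded by Cebpd, held 62.4, 67.95 and 76.1 TPM at Day6 and 48.2, 41.4 and 44.1 TPM at Day8 (-0.61 ± 0.07, adjusted p = 1.9e-05). Rxra, the partner of PPAR gamma, held 146, 176 and 151 TPM at Day6 and 110.3, 119.8 and 106 TPM at Day8 (-0.48 ± 0.07, adjusted p = 0.00018). Nr1h2, the liver X receptor beta, was the gene called higher (0.47 ± 0.10, adjusted p = 0.0043). Cebpb (0.06 ± 0.16, adjusted p = 0.83) was not called, and Cebpa (0.18 ± 0.15, adjusted p = 0.44) was called only without Day8 replicate 2 among the analyses run. For Pparg the libraries disagreed within each group, at 31.4, 49.2 and 174 TPM at Day6 and 35.4, 184 and 45.2 TPM at Day8, so that no change could be told (0.04 ± 0.62, adjusted p = 0.97).

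Growth factors and genes of the precursor cell changed in both directions. Igf2, insulin-like growth factor 2, held 2.96, 1.45 and 2.34 TPM at Day6 and 6.82, 7.95 and 6.89 TPM at Day8 (1.36 ± 0.17, adjusted p = 3.8e-05), and Vegfa, the angiogenic factor, 81.9, 83.8 and 107 TPM at Day6 and 165, 157 and 148 TPM at Day8 (0.79 ± 0.12, adjusted p = 0.0003). Agt, angiotensinogen, fell from 697, 822 and 758 TPM at Day6 to 391, 420.5 and 463 TPM at Day8 (-0.84 ± 0.18, adjusted p = 0.004), and the chemokine gene Cxcl12 by 0.45 ± 0.06. Fst, follistatin, which binds and blocks activins, fell from 41.4, 36.6 and 32.1 TPM at Day6 to 18.4, 15.2 and 15.7 TPM at Day8 (-1.11 ± 0.16, adjusted p = 0.00013), so that it and the activin subunit gene Inhbb moved in opposite directions in every library. Of 27 measured preadipocyte and progenitor genes 4 were called higher and 8 lower, with 2 and 4 in the 6 libraries alone. Dlk1, the inhibitor of adipogenesis Pref-1, was spread at 50.1, 20.9 and 12.04 TPM at Day8 against 11.2, 11.7 and 9.86 TPM at Day6 and was not called (1.04 ± 0.77, adjusted p = 0.37). In the interferon response 5 of 32 genes were called higher, or 3 without Day6 replicate 3, and 2 lower, with 3 and 1 in the 6 libraries alone. The shares of all tested genes called higher and lower were 11.1% and 12.3%. Immediate early genes had 5 higher and 5 lower of 21, or 3 and 2 in the 6 libraries alone, with Egr1 among the lower (-0.74 ± 0.14, adjusted p = 0.0017) and Fosl2 among the higher (0.66 ± 0.10, adjusted p = 0.00016).

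Whether the step from Day6 to Day8 differed from the step before it was tested as its own contrast, the step from Day6 to Day8 minus that from Day4 to Day6. The contrast was called in 1165 genes (9.83%), 399 above 0 (3.37%) and 766 below 0 (6.46%). Without Day6 replicate 1 it was called in 639. The 2 steps share the Day6 libraries, so a library that is high or low at Day6 moves both, and the levels are given side by side.

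Some genes stood highest at Day6. Mki67 held 9.22, 7.56 and 9.91 TPM at Day4 before its Day6 and Day8 levels given above, a change of step of -1.85 ± 0.24, adjusted p = 0.00022. Ccna2 held 22.1, 23.5 and 21.98 TPM at Day4 and had a change of step of -1.36 ± 0.12, adjusted p = 1.4e-05. Tfrc held 37.6, 33.03 and 36.7 TPM at Day4, less than at Day6 in each library (-1.54 ± 0.23, adjusted p = 0.00069). Retn rose from 832, 882 and 840.1 TPM at Day4 to its Day6 level before the fall (-1.43 ± 0.18, adjusted p = 0.00022), as did Gpd1 from 811, 864 and 842 TPM (-1.13 ± 0.14, adjusted p = 0.0002). Scd1 held 990.4, 1162 and 1022 TPM at Day4 and rose in both steps, less in the last (-1.37 ± 0.16, adjusted p = 9.6e-05). Car3, a carbonic anhydrase of fat and muscle, held 25.9, 38.8 and 29.4 TPM at Day4, 201, 205 and 190.2 TPM at Day6 and 206, 183 and 160.1 TPM at Day8 (-2.77 ± 0.25, adjusted p = 2.1e-05). The contractile actin gene Acta2 held 5.304, 4.801 and 3.97 TPM at Day4, 23.5, 15.6 and 21.6 TPM at Day6 and 18.1, 15.3 and 13.3 TPM at Day8 (-2.23 ± 0.26, adjusted p = 0.00012). Between Day6 and Day8 it was called only without Day6 replicate 2 among the analyses run (-0.52).

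Other genes stood lowest at Day6. Ddit4 held 340.3, 389 and 385 TPM at Day4, 166, 182 and 185 TPM at Day6 and 322, 288 and 280.1 TPM at Day8 (1.79 ± 0.12, adjusted p = 1.3e-06). The splicing kinase gene Clk4 held 29.96, 36.3 and 26.95 TPM at Day4, 16.4, 17.7 and 15.7 TPM at Day6 and 32.8, 36.6 and 41.1 TPM at Day8 (1.96 ± 0.29, adjusted p = 0.00061). Hnrnpa1, a splicing factor whose gene has many copies that can share reads, held 74.5, 127 and 171 TPM at Day4, 55.4, 43.4 and 46.8 TPM at Day6 and 102, 73.1 and 83.2 TPM at Day8 (2.07 ± 0.36, adjusted p = 0.0023). Its last step (0.81 ± 0.21, adjusted p = 0.011) was not called without Day8 replicate 1. In glucocorticoid targets the contrast was above 0 while the level fell in both steps, less in the last. These were Fkbp5 (0.90 ± 0.14, adjusted p = 0.00084), Tsc22d3 (1.30 ± 0.21, adjusted p = 0.001) and Cebpd (1.10 ± 0.12, adjusted p = 8e-05). Saa3, serum amyloid A3, held 32.3, 27.8 and 27.9 TPM at Day4, 3.76, 4.54 and 2.398 TPM at Day6 and 8.901, 5.13 and 4.01 TPM at Day8 (3.35 ± 0.35, adjusted p = 4.7e-05). Its last step (0.59 ± 0.20, adjusted p = 0.045) had overlapping groups and was not called in the fit of the 6 libraries alone, nor without Day6 replicate 1 or 3 or Day8 replicate 1 or 2.

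**Figure D5:**
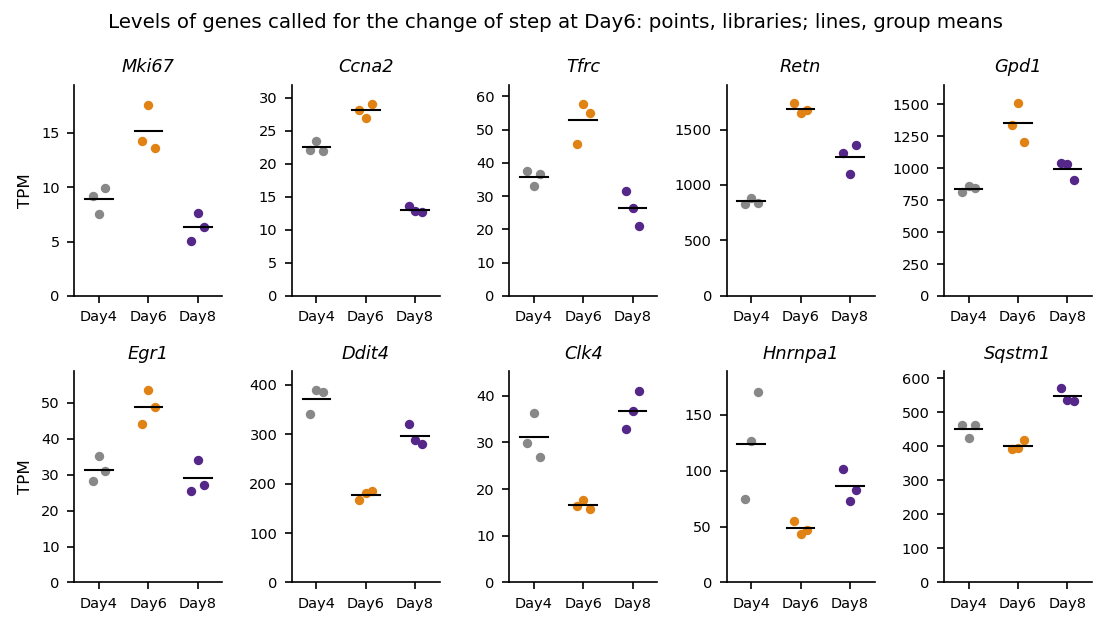
Level in TPM (vertical axes, from 0) in each Day4, Day6 and Day8 library, with 1 point per library and a line at the group mean, of 10 genes called for the change of step. The upper row and Egr1 have their highest mean at Day6, and Ddit4, Clk4, Hnrnpa1 and Sqstm1 have their lowest mean there.

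The genes that moved from Day6 to Day8 were also read in an earlier comparison that shares no library with this one, Day4 against MCE2. Of the 1310 genes higher at Day8, 48.0% were also higher at Day4 than at MCE2 and 12.7% were lower, where 30.9% and 22.7% of all tested genes were. Of the 1462 genes lower at Day8, 48.6% were lower at Day4 and 25.9% higher. Seen from the earlier comparison, 17.2% of its higher genes were higher again at Day8, where 11.1% of all tested genes were. Of its lower genes 26.4% were lower again, where 12.3% of all tested genes were. Both comparisons came from the same fit and used the same estimate of each gene's spread, so their calls are not independent. No test was made of these shares.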

How the data were processed

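Polyadenylated RNA of 18 libraries was sequenced, 3 in each of 6 groups. The deposited TPM values were made by the authors. The submitters' processing notes name FastQC, cutadapt, HISAT2, StringTie and the mm9 build. Versions, annotation and strand setting are not given in the sources used here.

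Genes were joined by symbol over the 18 tables, and 12 genes placed at another locus in 1 table were left out. Levels were taken as log2(TPM + 1). Tested genes reached 1 TPM in 3 or more of the 6 Day6 and Day8 libraries. The test was made with limma 3.58.1 in R 4.3.3, with a mean per group over all 18 libraries, an intensity trend and robust moderation, on 12 residual degrees of freedom. P-values were adjusted by Benjamini-Hochberg over all 11853 genes. The script was tested on simulated data. TPM holds no depth, so no counting interval was given.

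The comparison, the gene lists and the genes followed were chosen with earlier results of these data known. Named genes come from a panel of 26, from the 12 called genes of highest and the 12 of lowest fold change and the 8 of largest TPM gain and loss (without overlap of the groups, the former at 10 TPM or more), from up to 4 called members of each list in each direction, and from the 6 largest changes of step in each direction. Cdc20 and Top2a were added after their values were seen. Other list members, such as Acly, Atf4 and Ctsd, are named by their call alone, without values, and were not followed through the alternatives. Promoters came from RefSeq (GRCm38.p6), and 9308 of the 11853 tested genes (78.5%) matched. Motif shares given for tested genes cover the matched genes only. Alternatives were another pseudocount, filter, scaling or weighting, the 6 libraries alone (with Day4 added for the change of step), a replicate block and leaving out libraries or genes.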

Additional observations from a re-analysis of the deposited data

How the results depend on the processing

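Of 202 genes followed, 187 were called and 132 of these kept the call in each of 17 alternatives. Without a fold threshold, the lowest counts came from the libraries of each comparison alone. The 6 Day6 and Day8 libraries gave 553 genes higher and 583 lower, against 1310 and 1462. For the change of step, the 9 libraries of Day4, Day6 and Day8 gave 456, against 1165. With a change of at least 1 log2 unit required, 97 were higher and 100 lower. Leaving out 1 Day6 or Day8 library gave 959 to 1295 higher and 1189 to 1514 lower, and leaving out 1 Day4 library gave 1270 to 1315 higher and 1432 to 1461 lower. For the change of step, leaving out 1 of these 9 libraries gave 639 to 1458, lowest without Day6 replicate 1. No gene was called in the opposite direction in any alternative count. Quantile normalization lowered the changes of Scd1, Col1a2 and Col3a1 by over 1.5 times. It also turned 2 named values: Fabp4 to 0, not called, and Lpl to -0.30, called. Since it gives genes of equal rank the same value, it cannot show a change in a gene that keeps its rank. The cause of the other shifts was not tested. Replicate numbers did not pair the samples (r = -0.064, 0.089 and 0.033 for same-numbered Day6 and Day8 deviations), and a replicate block gave 1276 higher, 1435 lower and 1130 for the change of step. Depth is unknown and sets no stated limit.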
